A study of Mus musculus with 20 samples.

Results

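The genes described here are 8 established markers of Cajal-Retzius cells, followed through cultured mouse hippocampal neurons after a brief glutamate stimulus given with or without a change in zinc. The members are the rows of the gene count table that carry the symbols Reln, Calb2, Ndnf, Nhlh2, Trp73, Ebf3, Lhx1 and Lhx5, and all 8 were present among 24419 genes. All 8 also passed the filter on low counts that left 14411 genes for testing. The cultures were dissociated from C57BL6 hippocampi at embryonic day 18, with the tissue of 4 embryos pooled, and were grown for 10 days in serum-free neuronal medium, with 4 µM cytosine arabinoside on days 3 to 6 to remove proliferating cells. In all groups the culture medium was exchanged for a salt solution, a stimulus of 2 min was given, and RNA was taken after 90 min back at 37 °C. The 4 groups of 5 libraries received 50 µM glutamate with 10 µM tris(2-pyridylmethyl)amine (TPA, a zinc chelator, also present for 1 min beforehand), 50 µM glutamate with 10 µM ZnCl2, 50 µM glutamate alone, or the salt solution alone (control). None of these groups had TPA or ZnCl2 without glutamate. The labels describe 5 biological replicates per group, but none is tied to a separate embryo, and the p-values cover only the spread among the libraries, which may be technical.

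Cajal-Retzius cells are among the earliest-born neurons of the cortex and hippocampus. They lie in the marginal zone, which in the hippocampus becomes the outer molecular layers and borders the hippocampal fissure, and they secrete the glycoprotein reelin, which guides the placement of later-born neurons and the growth of their dendrites. Reelin binds the lipoprotein receptors encoded by Vldlr and Lrp8 on neighbouring neurons, and the bound receptors pass the signal to the adaptor protein encoded by Dab1, which Src family kinases phosphorylate. Many Cajal-Retzius cells die after birth. Reln and Calb2 are also expressed by GABAergic interneurons, and Ndnf also marks neurogliaform interneurons, whereas Trp73 together with Lhx1, Lhx5 and Ebf3 is used to tell Cajal-Retzius cells from other neurons.

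The 2 genes that frame the set are Reln, its abundant secreted product, and Trp73, which encodes a transcription factor of the p53 family and is made from a pair of promoters. The Reln promoter is shown because it carries the matches to a zinc-related motif found among these genes. Both Trp73 promoters are shown because the single Trp73 count does not separate their transcripts. Each sequence covers 250 bases before and 50 after a transcript start (RefSeq, GRCm38.p6, minus strand, 5′ to 3′). Capitals mark matches to the core of the metal response element.
Reln promoter, chr5:22344656-22344955: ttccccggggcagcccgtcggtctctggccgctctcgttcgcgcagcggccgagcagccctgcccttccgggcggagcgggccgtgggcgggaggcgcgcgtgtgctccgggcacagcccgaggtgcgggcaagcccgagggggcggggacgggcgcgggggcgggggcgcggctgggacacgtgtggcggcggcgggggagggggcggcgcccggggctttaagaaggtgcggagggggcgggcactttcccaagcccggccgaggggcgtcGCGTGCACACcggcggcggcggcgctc
Trp73 upstream promoter, chr4:154139826-154140125: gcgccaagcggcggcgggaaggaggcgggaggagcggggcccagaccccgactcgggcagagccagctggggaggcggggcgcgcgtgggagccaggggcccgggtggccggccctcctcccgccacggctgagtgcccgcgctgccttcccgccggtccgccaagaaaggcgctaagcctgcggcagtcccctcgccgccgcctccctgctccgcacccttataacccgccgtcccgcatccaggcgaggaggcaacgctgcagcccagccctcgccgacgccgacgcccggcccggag
Trp73 internal promoter, chr4:154097124-154097423: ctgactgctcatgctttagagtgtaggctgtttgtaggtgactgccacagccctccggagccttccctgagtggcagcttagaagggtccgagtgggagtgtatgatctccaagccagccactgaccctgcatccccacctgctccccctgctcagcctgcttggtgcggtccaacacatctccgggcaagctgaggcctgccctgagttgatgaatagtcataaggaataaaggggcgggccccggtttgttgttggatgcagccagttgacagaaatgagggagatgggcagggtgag
The RefSeq table held a promoter for 5 of the 8 genes, namely Reln, Nhlh2, Trp73, Ebf3 and Lhx1. The Reln promoter was 80.7% G and C with 47 CpG dinucleotides, a GC content above that of 99.2% of the 32851 promoters in the table. The upstream Trp73 promoter had 77.7% G and C and 39 CpG, against 57.7% and 6 CpG in the internal promoter, from which an amino-terminally shortened form of the protein is made. A single count per gene does not separate the 2 Trp73 transcripts. The authors' deposited annotation has a first exon at the internal start but not at the upstream start printed here. A set of 3 motifs was searched on both strands in these 6 promoters: the cyclic AMP response element TGACGTCA, the AP-1 element TGANTCA and the metal response element core TGCACNC or TGCGCNC. The Reln promoter held 2 overlapping matches to the metal response element core, one on each strand, just after the transcript start. The other 5 promoters held none of the 3 motifs. Over all promoters of this length the metal response element core occurred in 25.7%, the AP-1 element in 7.81% and the cyclic AMP response element in 1.79%.

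Library totals ran from 28692470 to 40934630 counts, so that 3 counts corresponded to 0.0738 to 0.105 CPM (counts divided by a library size that corrects for composition). Of the 20 libraries, 3 lay farthest from the mean of their group over all tested genes: glutamate replicates 5 and 4 and ZnCl2 replicate 5, with root mean square log2 deviations of 0.249, 0.240 and 0.239, against 0.150 to 0.217 in the other 17. Results that move when they are left out are given with and without them. In bulk RNA, fewer cells of a type and less RNA per cell cannot be told apart. A fixed list of 8 rapid early response genes recorded the stimulus, and all 8 had positive log2 fold changes against control in each stimulated group. Of these, 6 passed with TPA, 1 with ZnCl2 and 2 with glutamate alone (edgeR's quasi-likelihood test, adjusted p under 0.05). By the same test 8, 6 and 8 had an unadjusted p under 0.05, in that order. For TPA against glutamate 6 of 8 were positive and 0 passed the adjusted threshold. All 8 were positive for TPA against ZnCl2, where 1 passed (Klf4, log2 fold change 0.91, SE 0.17, edgeR adjusted p = 0.0198). All 8 were negative for ZnCl2 against glutamate, where 0 passed. Fosb, which encodes a Fos family protein, averaged 17.9 ± 0.561 CPM with TPA, 14.3 ± 2.78 CPM with ZnCl2 and 18.7 ± 3.07 CPM with glutamate alone, against 8.05 ± 0.693 CPM in control (SD, n = 5 each).

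The 8 markers fell into an abundant pair, a pair at moderate levels and 4 genes near or below 1 TPM. Per gene length, in TPM (counts divided by gene length and rescaled to a common total) over 20 libraries, Calb2 averaged 230 ± 13.9 TPM and Reln 213 ± 24.5 TPM (SD, n = 20), ranking 880th and 981st of 24419 genes. Calb2, which encodes the calcium-binding protein calretinin, was above Reln in 15 of 20 libraries, and the ranges of the 2 genes, 195 to 252 TPM and 164 to 260 TPM, overlapped. Ndnf, which encodes a secreted neurotrophic factor, averaged 11.8 ± 1.20 TPM, and Nhlh2, a basic helix-loop-helix transcription factor, 5.20 ± 0.899 TPM. Trp73 averaged 0.933 ± 0.134 TPM and ranked 13063rd. Lhx1 and Lhx5, which encode related LIM-homeodomain transcription factors, averaged 0.411 ± 0.171 TPM and 0.368 ± 0.125 TPM, and Ebf3, of the early B-cell factor family, 0.387 ± 0.108 TPM. From Reln down to Trp73 each gene was above the next in 20 of 20 libraries, whereas Lhx1, Ebf3 and Lhx5 did not differ beyond their spread: Lhx1 exceeded Ebf3 in 11 libraries and Ebf3 exceeded Lhx5 in 10.

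**Figure D1:**
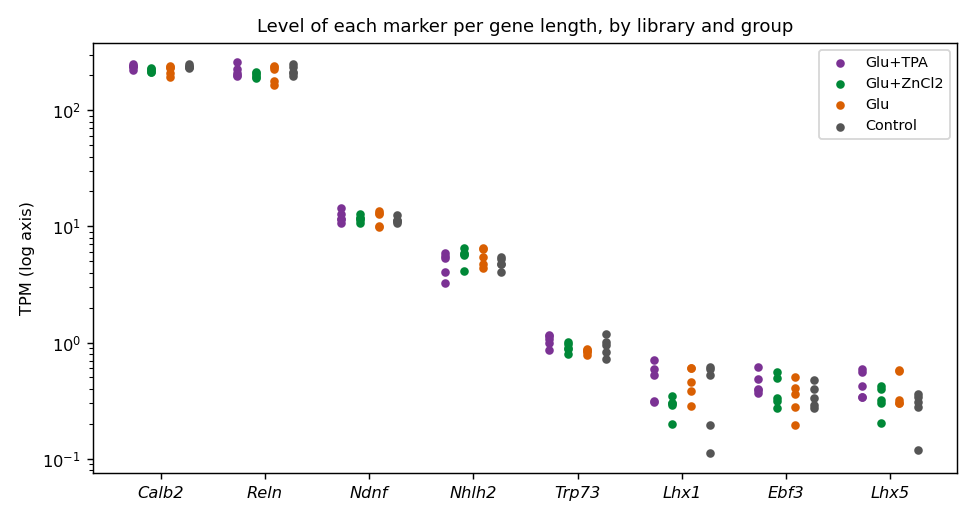
Level of each marker in TPM on a log axis, with genes in order of mean level and 1 point per library, coloured by group. Calb2 and Reln sit near 200 TPM in every library, while Trp73, Lhx1, Ebf3 and Lhx5 sit near or below 1 TPM.

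The levels bear on the name of the set. Reln and Calb2 together made up 95.2% to 96.4% of the summed TPM of the 8 genes in each library, while Trp73, Ebf3, Lhx1 and Lhx5 summed to 1.46 to 2.83 TPM. The ratio of Reln to Trp73 in TPM ran from 182 to 329. Markers of GABAergic interneurons, some of which also express Reln and Calb2, ranged widely. Gad1, the main GABA-synthesizing enzyme, averaged 590 TPM and the vesicular GABA transporter gene Slc32a1 114 TPM. Among other interneuron genes, the neuropeptide gene Sst averaged 1020 TPM, Id2 251 TPM, Npy 228 TPM and Cnr1 186 TPM. Cck averaged 115 TPM, Lhx6 59.9 TPM and Nos1 36.0 TPM. Lower levels were seen for Lamp5 (8.95 TPM), Adarb2 (8.06 TPM), Htr3a (6.86 TPM), Sp8 (3.35 TPM), Vip (2.74 TPM) and Pvalb (1.46 TPM). The 22 interneuron genes of the fixed list summed to 3280 to 3760 TPM with TPA, 3100 to 3560 TPM with ZnCl2, 2960 to 3830 TPM with glutamate and 3360 to 3640 TPM in control. How much of the Reln and Calb2 came from each cell type was not tested. The set is therefore read here as a list of genes, and its transcripts near 1 TPM are the ones used to define the cell type.

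Of 18 further genes linked to Cajal-Retzius cells or the marginal zone, 15 passed the filter. Tbr1, a T-box factor of Cajal-Retzius cells and of early-born glutamatergic neurons, averaged 72.9 TPM, and Nr2f1, a nuclear receptor that other neurons also express, 101 TPM. Cxcr4, the receptor for the meningeal chemokine that keeps Cajal-Retzius cells at the surface, averaged 7.94 TPM. The zinc-finger genes Zic1 and Zic2 averaged 4.90 and 2.71 TPM, and Ebf2, a relative of Ebf3, 0.145 TPM. Dbx1, which marks progenitors of some Cajal-Retzius cells, had 0 counts in all 20 libraries, and Ebf1 and Mab21l1 did not pass the filter.

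Reln had the most counts of the set, and none of its comparisons passed the threshold. Its gene lies on chr5:21884454-22344705 (mm10, minus strand, 64 exons, 11698 bases of exon) and took 0.0638% to 0.0986% of all counts. Reln had 786, 994, 814, 890 and 780 CPM in the 5 TPA libraries and 779, 802, 763, 839 and 748 CPM in the ZnCl2 libraries. It had 913, 930, 857, 698 and 642 CPM in the glutamate libraries and 973, 922, 823, 770 and 836 CPM in control. The groups overlapped in every comparison, and the 3 lowest libraries were glutamate replicates 5 and 4 and ZnCl2 replicate 5, the same 3 that lay farthest from their groups over all genes. The group means were 853 ± 90.1 CPM with TPA, 786 ± 36.0 CPM with ZnCl2, 808 ± 130 CPM with glutamate and 865 ± 81.5 CPM in control (SD, n = 5 each).

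The log2 fold changes (edgeR) were -0.02 with TPA, -0.14 with ZnCl2 and -0.10 with glutamate, each against control, with a standard error (SE) of 0.09. Between the stimulated groups they were 0.08 for TPA against glutamate, 0.12 for TPA against ZnCl2 and -0.04 for ZnCl2 against glutamate. The 95% intervals of all 6 together covered fold changes of 0.795 to 1.24. The low libraries set the sign of some of these values: without the 3 farthest libraries glutamate against control was 0.06 and TPA against glutamate was -0.08.

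**Figure D2:**
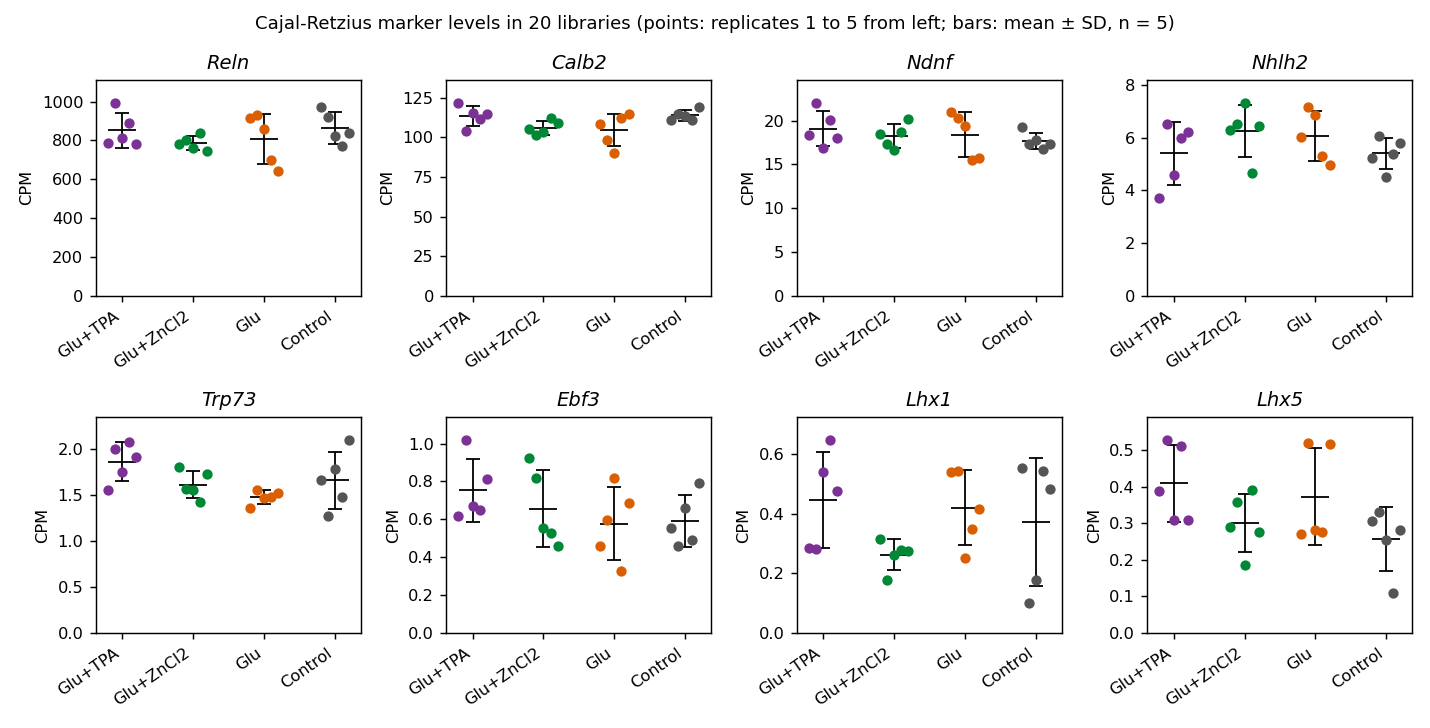
CPM of each marker in every library (points, replicates 1 to 5 from left), with the mean and SD of each group (bars, n = 5), for TPA, ZnCl2, glutamate and control. Every axis starts at 0. The groups overlap for all 8 genes, and the spread widens from Calb2 to Lhx1 and Lhx5.

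Calb2 varied least. On chr8:110142538-110168206 (minus strand, 11 exons), it had 122, 104, 115, 112 and 115 CPM with TPA and 105, 101, 103, 112 and 109 CPM with ZnCl2. It had 108, 98.3, 90.3, 112 and 115 CPM with glutamate and 111, 115, 113, 111 and 119 CPM in control. Its 2 lowest libraries were glutamate replicates 3 and 2, and the 5 control libraries lay closest together. The means were 114 ± 6.35 CPM with TPA, 106 ± 4.37 CPM with ZnCl2, 105 ± 10.3 CPM with glutamate and 114 ± 3.44 CPM in control (SD, n = 5 each). Glutamate against control gave a log2 fold change of -0.12 (SE 0.05, edgeR adjusted p = 0.95). TPA against glutamate gave 0.12 (SE 0.05, edgeR adjusted p = 0.697). Over the 6 comparisons the 95% intervals covered fold changes of 0.852 to 1.17.

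Calb2 was also the 1 marker that passed the threshold in any setting. Without glutamate replicates 4 and 5 and ZnCl2 replicate 5, TPA against glutamate had a log2 fold change of 0.20 with an edgeR adjusted p of 0.0409, and 551 genes passed in place of 0. Glutamate replicates 4 and 5 had the most Calb2 of their group, 112 and 115 CPM. Leaving out libraries for their distance from their group can also narrow the spread used by the test. With 1 library left out at a time, the log2 fold change for TPA against glutamate ran from 0.07 without glutamate replicate 3 to 0.15 without glutamate replicate 5. No such fit called Calb2. In the authors' deposited table the same comparison had a log2 fold change of 0.09 with p = 0.0412 and an adjusted p of 0.90.

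Ndnf, on chr6:65671611-65706930 (plus strand, 4 exons), had 18.4, 22.1, 16.9, 20.04 and 18.0 CPM with TPA and 18.5, 17.4, 16.6, 18.7 and 20.2 CPM with ZnCl2. It had 20.98, 20.3, 19.4, 15.6 and 15.8 CPM with glutamate and 19.3, 17.4, 17.8, 16.8 and 17.3 CPM in control. As for Reln, glutamate replicates 4 and 5 were low, here the lowest 2 of all libraries. The log2 fold changes ran from -0.01 for ZnCl2 against glutamate to 0.11 for TPA against control (SE 0.08 for each), with intervals covering fold changes of 0.882 to 1.21.

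Nhlh2, on chr3:102010145-102015492 (plus strand, 3 exons), had 3.72, 6.53, 4.59, 6.00 and 6.21 CPM with TPA and 6.32, 6.54, 7.33, 4.65 and 6.46 CPM with ZnCl2. It had 6.03, 7.19, 6.87, 5.30 and 4.97 CPM with glutamate and 5.24, 6.07, 4.53, 5.40 and 5.82 CPM in control. TPA replicate 1 was the lowest library and ZnCl2 replicate 3 the highest, and all groups overlapped. The largest differences were TPA against ZnCl2 at -0.22 and ZnCl2 against control at 0.21 on the log2 scale (SE 0.14 each; edgeR adjusted p = 0.464 and 0.607).

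Trp73 had the smallest unadjusted p-value of the 48 member tests. The gene lies on chr4:154056249-154140208 (minus strand, 15 exons) and had 50 to 82 counts per library. It had 1.55, 2.00, 1.75, 2.08 and 1.91 CPM with TPA and 1.80, 1.56, 1.56, 1.42 and 1.72 CPM with ZnCl2. It had 1.35, 1.56, 1.46, 1.48 and 1.53 CPM with glutamate and 1.66, 1.28, 1.78, 1.47 and 2.09 CPM in control. With TPA 4 of 5 libraries lay above all 5 glutamate libraries, and TPA replicate 1 lay within their range. The means were 1.86 ± 0.211 CPM with TPA and 1.47 ± 0.0783 CPM with glutamate (SD, n = 5 each), a log2 fold change of 0.32 (SE 0.13, 95% interval 0.06 to 0.59, edgeR adjusted p = 0.661). The same comparison gave 0.28 to 0.39 on the log2 scale when each library was left out in turn. TPA exceeded ZnCl2 by 0.20 and control by 0.16 on the log2 scale (SE 0.13 each), with neither past the threshold. In the authors' deposited table TPA against glutamate had p = 0.0337 and an adjusted p of 0.885.

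Ebf3, Lhx1 and Lhx5 were counted too rarely for modest differences to be measured. Ebf3 (chr7:137193671-137314445, minus strand, 18 exons) had 13 to 35 counts per library. Its group means were 0.754 ± 0.166 CPM with TPA, 0.657 ± 0.202 CPM with ZnCl2, 0.577 ± 0.192 CPM with glutamate and 0.591 ± 0.136 CPM in control (SD, n = 5 each). The largest log2 fold change was 0.38 for TPA against glutamate (SE 0.24, edgeR adjusted p = 0.759).

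Lhx1 (chr11:84519379-84525534, minus strand, 5 exons) had 11, 8, 21, 19 and 17 counts with TPA and 12, 7, 10, 10 and 9 counts with ZnCl2. It had 20, 21, 9, 14 and 17 counts with glutamate and 20, 4, 7, 20 and 19 counts in control. The ZnCl2 libraries were uniformly low, at 0.179 to 0.317 CPM, and their range overlapped that of every other group. Control replicates 2 and 3 had the lowest Lhx1 values of all 20 libraries. TPA against ZnCl2 gave the lowest adjusted p of any member test, a log2 fold change of 0.76 (SE 0.37, edgeR adjusted p = 0.32), and ZnCl2 against glutamate gave -0.68 (SE 0.37, edgeR adjusted p = 0.858). The 95% intervals over the 6 comparisons covered fold changes of 0.368 to 2.88.

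Lhx5 (chr5:120431886-120441457, plus strand, 5 exons) had 15, 15, 12, 15 and 11 counts with TPA and 11, 14, 7, 14 and 9 counts with ZnCl2. It had 10, 20, 10, 11 and 21 counts with glutamate and 11, 13, 10, 4 and 11 counts in control. Glutamate replicates 2 and 5 stood apart at 0.519 and 0.516 CPM from the other 3 glutamate libraries at 0.270 to 0.281 CPM. The largest log2 fold changes were against control, 0.63 with TPA (SE 0.30, edgeR adjusted p = 1) and 0.54 with glutamate (SE 0.29, edgeR adjusted p = 0.95). Its relative Lhx1 gave 0.27 and 0.19 in the same 2 comparisons.

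**Figure D3:**
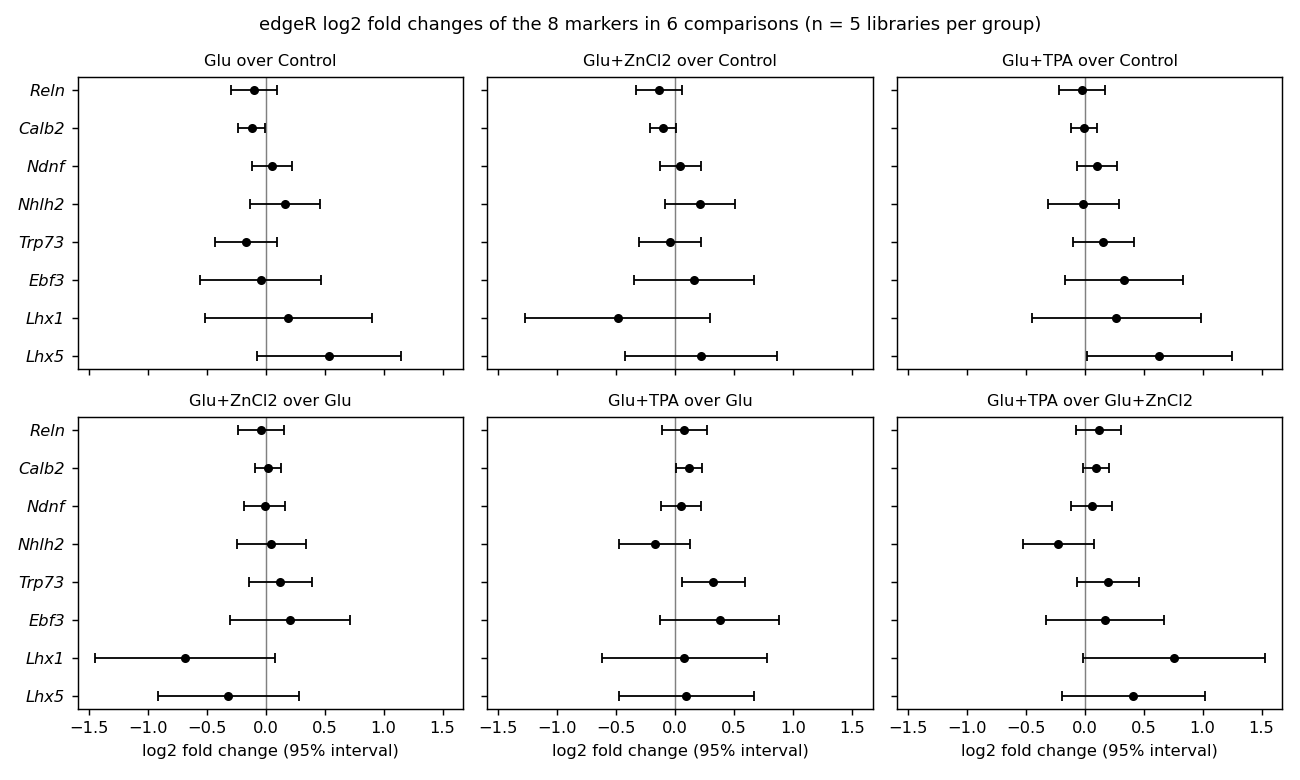
Fitted log2 fold changes of the 8 markers (points) with 95% intervals (bars) in the 6 comparisons, each titled with the first group over the second. Intervals for Calb2, Reln and Ndnf are narrow, and those for Lhx1 and Lhx5 reach past 1 in at least 1 comparison. Without adjustment, Calb2 intervals exclude 0 for glutamate against control and for TPA against glutamate. So do those of Trp73 for TPA against glutamate and Lhx5 for TPA against control.

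Over all 6 comparisons, 0 of the 48 member tests passed the adjusted threshold by edgeR, 4 had an unadjusted p under 0.05, and limma-voom also called none. DESeq2 called none of the tests to which it gave an adjusted p, which for TPA against ZnCl2 left out 4 of 8 markers (Trp73, Ebf3, Lhx1 and Lhx5). Among all 14411 genes, the share past the adjusted threshold was 0.0694% for TPA, 0.0416% for ZnCl2 and 0.0208% for glutamate, each against control. It was 0.513% for TPA against ZnCl2, and 0% for TPA and for ZnCl2 against glutamate. With so few genes called, 0 of 8 markers is near the background of each comparison. The 4 unadjusted passes were 1 of 8 markers for glutamate against control, where 4.98% of all genes passed (Calb2), 1 of 8 for TPA against control, with 3.09% (Lhx5), and 2 of 8 for TPA against glutamate, with 7.15% (Calb2 and Trp73). The other 3 comparisons had 0 of 8, with 11.1% of all genes for ZnCl2 against control, 5.98% for ZnCl2 against glutamate and 16% for TPA against ZnCl2. For no marker did the CPM ranges of 2 groups separate, although for TPA against ZnCl2 this happened for 3.13% of all genes, for TPA against glutamate for 1.03% and for ZnCl2 against glutamate for 0.701%. Against control it happened for 1.33% with TPA, 2.66% with ZnCl2 and 0.985% with glutamate.

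In the edgeR fit of all 20 libraries the signs were most uneven where TPA was compared with another stimulated group. For TPA against ZnCl2 and for TPA against glutamate 7 of 8 markers had a positive log2 fold change, with medians of 0.15 and 0.09, and Nhlh2 was the exception in both. Without the 3 farthest libraries TPA against glutamate had 4 of 8 positive, since Reln, Ndnf and Lhx1 also turned negative, and 5 of 8 with library weights in limma-voom, while TPA against ZnCl2 kept 7 of 8 in both settings. The medians over all genes were 0.00 in both comparisons. For TPA against control 5 of 8 were positive with a median of 0.13, and for ZnCl2 and glutamate against control 4 of 8 each with medians of 0.00 and 0.01. Without the 3 farthest libraries glutamate against control had 6 of 8 positive. For ZnCl2 against glutamate 4 of 8 were positive with a median of 0.00. These comparisons share libraries, and the rarest genes had the widest intervals, so the signs are given as a description. A single test of any difference among the 4 groups gave edgeR adjusted p-values from 0.514 for Calb2 to 0.93 for Ndnf, where 0.167% of all genes passed. For 0 of 8 markers was that p under 0.05 before adjustment, as it was for 10.4% of all genes.

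The libraries limit the genes differently. The coefficient of variation of CPM over 20 libraries was 6.78% for Calb2, 9.5% for Ndnf, 10.8% for Reln, 14.3% for Trp73 and 16.7% for Nhlh2. Counting error alone gives 0.574% for Reln and 1.57% for Calb2, so their spread came almost wholly from differences between libraries. For Trp73 counting error gives 12.9%, close to its whole spread. It gives 20.6%, 27.0% and 28.6% for Ebf3, Lhx1 and Lhx5, against observed values of 27.4%, 41.5% and 33.8%.

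Once the group means were subtracted, the markers varied together only in part. Among the 10 pairs of the 5 markers with a mean of at least 1 CPM, Reln and Ndnf varied in the same direction over the 20 libraries (Pearson's r = 0.823, p = 0.00092, adjusted p = 0.0092; Spearman's rho = 0.792, p = 0.00166, adjusted p = 0.0158; permutation tests within groups). The relation was r = 0.751 without the 2 libraries farthest from the Reln median and 0.849 without the 3 libraries farthest from their groups. The ZnCl2 libraries did not line up in this way: ZnCl2 replicate 5 had the most Ndnf of its group and the least Reln. Each group alone, with 5 libraries, is too small for a correlation of its own. The permutations treat the libraries of a group as independent of those in other groups. Libraries of the same replicate number may share variation (see the closing section), so the p-values of all marker pairs may be too small.

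Calb2 and Nhlh2 varied in opposite directions (r = -0.664, permutation p = 0.00285, adjusted p = 0.0142; rho = -0.701, permutation p = 0.00316, adjusted p = 0.0158), with r = -0.665 without the 2 libraries farthest from the Calb2 median and -0.622 without the 3 libraries farthest from their groups. The control libraries did not line up in this way: control replicates 5 and 2, with the most Nhlh2 of their group, also had the most Calb2. Reln and Calb2, the 2 abundant markers, also had a negative coefficient, which did not pass (r = -0.577, permutation adjusted p = 0.178; rho = -0.571, adjusted p = 0.134). Trp73 showed no such relation to Reln (r = -0.031, permutation adjusted p = 0.891; rho = 0.015, adjusted p = 0.953). The other 6 pairs did not pass either. The main axis of variation between libraries over all genes held 20.8% of the variance, and its coefficients with the markers ran from -0.341 for Calb2 to 0.434 for Reln, against a median size of 0.34 over all genes.

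**Figure D4:**
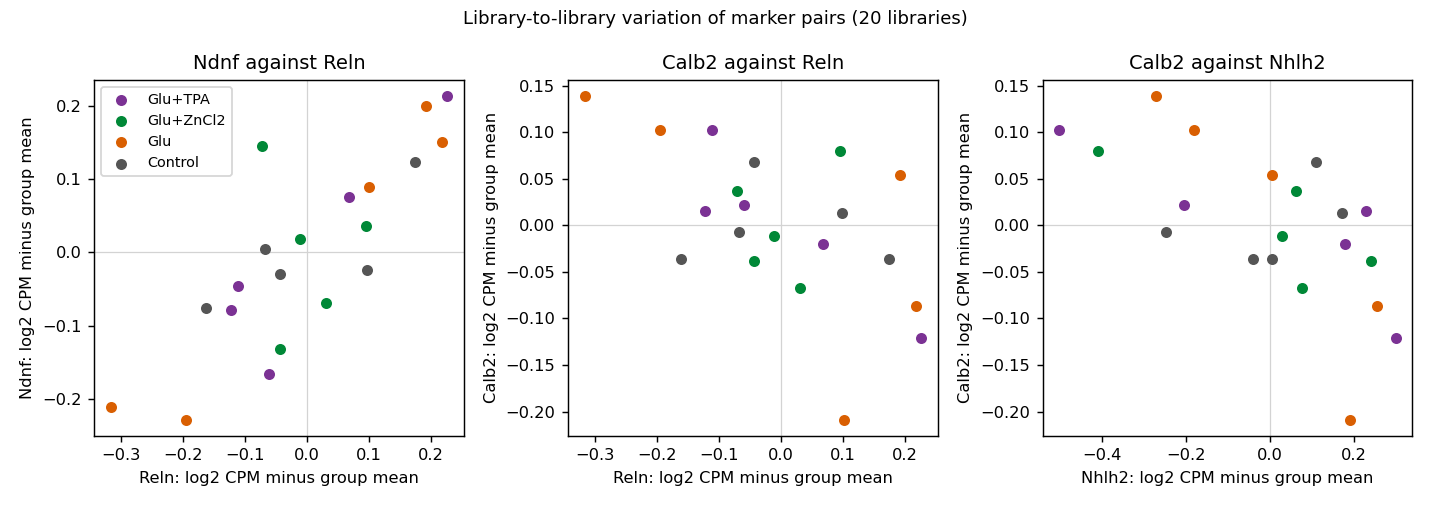
Deviation of log2 CPM from the group mean in each of 20 libraries (points, coloured by group) for Ndnf against Reln, Calb2 against Reln and Calb2 against Nhlh2. Ndnf follows Reln (r = 0.823), and Calb2 runs against Nhlh2 (r = -0.664).

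The genes most like each marker differed from marker to marker. These are coefficients of log2 CPM over 20 libraries among 11863 genes, which share the depth and composition of each library. For Reln they were Mturn (0.872), the growth factor receptor gene Egfr (0.870) and Zfp536 (0.863), and for Ndnf they were Neb (0.876), Kcnh7 (0.843) and Chd6 (0.835). For Calb2 they were the neuronal tubulin gene Tubb3 (0.900), the dynein light chain gene Dynll1 (0.887) and Pea15a (0.883). For Nhlh2 they were Osbpl8 (0.898), the calcium channel subunit gene Cacnb4 (0.881) and Fam179b (0.873), and for Trp73 Slain2 (0.756), Tmem229a (0.725) and Senp2 (0.713). Coefficients of at least 0.5 were held by 722 genes for Reln, 1391 for Calb2, 743 for Ndnf, 1405 for Nhlh2 and 140 for Trp73. No marker was among the 3 most like genes of another marker. With 3 places among 11863 genes, this does not show whether the markers vary together. Between markers these coefficients ran from -0.714 (Calb2 and Nhlh2) to 0.731 (Reln and Ndnf).

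The pathway downstream of Reln was present. The reelin receptor genes Lrp8 and Vldlr averaged 65.6 and 49.1 TPM, Dab1 92.9 TPM, and Fyn, the Src family kinase that phosphorylates the Dab1 protein, 223 TPM. All 30 genes of the reelin signalling list were tested, and 0 passed the adjusted threshold in any comparison by edgeR. Unadjusted p-values under 0.05 were most frequent for TPA against ZnCl2, with 8 of 30 against 16% of all genes, and the list's median log2 fold change there was 0.03. For ZnCl2 against control 7 of 30 had such a p-value, against 11.1% of all genes, with a median of -0.03. Itgb1, which encodes an integrin subunit, averaged 102 ± 1.65 CPM with TPA and 111 ± 4.07 CPM with ZnCl2 (log2 fold change -0.13, SE 0.04, edgeR adjusted p = 0.121). Its means were 110 ± 7.35 CPM with glutamate and 102 ± 3.54 CPM in control. Src, the founding member of the kinase family, averaged 88.3 ± 2.56 CPM with TPA and 81.0 ± 2.87 CPM with ZnCl2 (0.12, SE 0.04, edgeR adjusted p = 0.125). Its means were 87.4 ± 4.95 CPM with glutamate and 86.1 ± 3.14 CPM in control. Rnf7, a subunit of the ubiquitin ligase that ends Dab1 signalling, averaged 40.4 ± 2.30 CPM with TPA and 45.0 ± 3.12 CPM with ZnCl2 (-0.16, SE 0.05, edgeR adjusted p = 0.133). Its means were 42.9 ± 1.72 CPM with glutamate and 41.5 ± 2.22 CPM in control. Limk1, a kinase that acts on the actin regulator cofilin, averaged 75.1 ± 2.86 CPM with TPA, 79.3 ± 2.46 CPM with glutamate and 73.0 ± 2.08 CPM in control. Its log2 fold change was 0.12 for glutamate against control (SE 0.04, edgeR adjusted p = 0.779) and -0.08 for TPA against glutamate (SE 0.04, edgeR adjusted p = 0.694).

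Lists for other cell types did not pass either. None of the 15 tested further Cajal-Retzius and marginal zone genes passed in any of the 6 comparisons. Eomes, a T-box gene expressed by intermediate progenitors and some Cajal-Retzius cells, averaged 0.715 ± 0.258 CPM with TPA and 0.421 ± 0.259 CPM with ZnCl2 (log2 fold change 0.74, SE 0.35, edgeR adjusted p = 0.301). Its means were 0.5 ± 0.192 CPM with glutamate and 0.704 ± 0.149 CPM in control. Ebf2 averaged 0.357 ± 0.236 CPM with TPA and 0.224 ± 0.106 CPM with ZnCl2 (0.66, SE 0.51, edgeR adjusted p = 0.557). Its means were 0.208 ± 0.137 CPM with glutamate and 0.278 ± 0.144 CPM in control. Emx2, a homeobox gene of the hippocampal primordium, averaged 8.31 ± 1.02 CPM with TPA and 9.55 ± 1.01 CPM with glutamate (-0.20, SE 0.09, edgeR adjusted p = 0.688). Its means were 9.38 ± 0.918 CPM with ZnCl2 and 8.33 ± 0.521 CPM in control. Cxcr4 averaged 4.74 ± 0.682 CPM with TPA and 5.06 ± 0.346 CPM with ZnCl2 (-0.08, SE 0.10, edgeR adjusted p = 0.715). Its means were 4.73 ± 0.509 CPM with glutamate and 4.62 ± 0.429 CPM in control. Among the 22 interneuron genes Nos1, the neuronal nitric oxide synthase gene, averaged 122 ± 7.90 CPM with TPA and 108 ± 15.6 CPM with ZnCl2 (0.18, SE 0.08, edgeR adjusted p = 0.259). Its means were 114 ± 9.2 CPM with glutamate and 120 ± 6.09 CPM in control. For TPA against ZnCl2 the serotonin receptor gene Htr3a had a log2 fold change of 0.29 (SE 0.14), Id2 0.09 (SE 0.07) and Dlx2 0.11 (SE 0.08). Of the 22 genes 0 passed in any comparison. The lists for pyramidal and granule neurons, astrocytes, oligodendrocyte lineage, microglia, vascular and meningeal cells, choroid plexus and ependyma, and dividing cells also had 0 genes past the threshold in all 6 comparisons. Dividing-cell genes summed to 3.68 to 5.74 TPM and vascular and meningeal genes to 20.4 to 25.1 TPM over the 20 libraries.

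Annotated exons on the opposite strand overlap Reln by 246 bases (Gm10475), Trp73 by 280 bases (Trp73os) and Ebf3 by 355 bases (Gm45278). The strand setting used for counting is not given in the sources, and reads from these transcripts may be included. For Trp73 and Ebf3, with 50 to 82 and 13 to 35 counts, a small number of such reads would change the values.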

How the data were processed

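Per the labels, polyadenylated RNA of 20 cultures was made into strand-specific libraries and sequenced. The submitters' processing notes list the build mm10, HISAT2 2.1.0, featureCounts, Trimmomatic 0.36, DESeq2 1.14.1, SAMtools 1.3.1 and R 3.3.0. The authors deposited whole-number counts per gene, TPM values and an annotation. The authors' 6 comparison tables hold, per the file headers, a p-value, an adjusted p-value, a test score, a log2 fold change (shrunken) with its SE, and a mean normalized signal.

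The members and lists, and the tests and other settings, were chosen with earlier results of these data known. Counts entered an edgeR 4.0.16 quasi-likelihood model (R 4.3.3, robust estimates, TMM scaling, edgeR's expression filter, 16 residual degrees of freedom) of all 20 libraries with 4 group means. Adjustment was by Benjamini-Hochberg over 14411 genes, with a threshold of 0.05. All markers are named, and from each list up to 6 genes that passed or else up to 4 with the smallest p among groups. For lists of other cell types the text gives counts, and genes given only as a TPM level were chosen for their role after their values were seen. CPM used TMM library sizes, and log2 CPM a prior count of 2. Levels across genes are TPM. Correlations used 100000 permutations. The model was tested on simulated counts. The 95% intervals of fold changes come from the model and its spread between libraries, and the 3-count floor covers counting error only. DESeq2 1.42.0, limma-voom (limma 3.58.1) and the other settings are given in the closing section.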

Additional observations from a re-analysis of the deposited data

How the results depend on the processing

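Of the 48 fold changes of the markers, 1 passed the adjusted threshold in 1 alternative (1 of 990 values), Calb2 for TPA against glutamate without the 3 libraries farthest from their groups, and 15 changed sign in at least 1, none of them above 0.193 in size on the log2 scale. Those 3 libraries left out, log2 fold changes with another sign were 0.057 for Reln and 0.069 for Ebf3 (glutamate against control), -0.11 for Nhlh2 (ZnCl2 against glutamate), and -0.078 for Reln, -0.089 for Ndnf and -0.013 for Lhx1 (TPA against glutamate). Limma-voom with library weights gave 0.018 for Nhlh2 (TPA against control), 0.0097 for Reln (glutamate against control), and -0.010 for Reln and -0.054 for Ndnf (TPA against glutamate). Leaving out each library in turn, values spanned 0 for TPA against control in Reln (-0.081 to 0.026), Calb2 (-0.028 to 0.026) and Nhlh2 (-0.085 to 0.10), for TPA against glutamate in Ndnf (-0.0072 to 0.10), Lhx1 (-0.075 to 0.21) and Lhx5 (-0.0051 to 0.24), for ZnCl2 against control in Trp73 (-0.13 to 0.059), for ZnCl2 against glutamate in Reln (-0.12 to 0.012), Calb2 (-0.035 to 0.049), Ndnf (-0.065 to 0.038) and Nhlh2 (-0.021 to 0.14), and for glutamate against control in Ebf3 (-0.19 to 0.11) and Lhx1 (-0.049 to 0.38).

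Counts of all genes past the threshold moved far more than the markers did, and the cause was not tested. For TPA against ZnCl2 (74 genes by edgeR) they were 496 with DESeq2, 3131 with library weights, 1149 without the 3 farthest libraries, 37 with library size alone, 41 with no low-count filter, 6 with these 2 groups alone, and 5 (without ZnCl2 replicate 3) to 899 (without ZnCl2 replicate 4) leaving out each library. For TPA against control (10) they ran from 8 with no low-count filter to 12 with the 2 groups alone or without the 3 farthest libraries, and 6 to 10 leaving out each library. For TPA against glutamate (0) they were 1 with DESeq2, 484 with library weights and 551 without the 3 farthest libraries, and 0 to 2 leaving out each library. For ZnCl2 against control (6) they were 64, 1825 and 231 in the same order, and 3 (without control replicate 1) to 100 (without ZnCl2 replicate 4). For ZnCl2 against glutamate (0) they were 2, 107 and 1, and 0 to 3. For glutamate against control (3) they were 14, 59 and 100, then 5 with DESeq2's size factors, 5 when genes under 1 CPM on average were dropped, and 2 to 5 leaving out each library. The edgeR fit without robust estimates, an alternative chosen after seeing the data, gave 6 there.

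The labels do not say what a replicate number shares, and not every same-numbered pair had deviations correlated above 0.1, the bar set for pairing (11 of 30 did, range -0.0699 to 0.497), so the numbers were not used as pairs. Some sharing is hinted at by the data, not by the design: 9 of 20 libraries were closest to their own number, and on the main axis of variation all 4 libraries of replicate 1 and all 4 of replicate 2 were positive and all 4 of replicate 5 negative. With the replicate block, 422 genes passed for TPA against ZnCl2 and 39 for ZnCl2 against control, and 0 markers passed in any comparison. Depth limits Lhx1, Lhx5 and Ebf3 most, with 4 to 35 counts per library.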
